A study of Mus musculus with 41 samples.

Results

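Single cells of fetal mouse lung were compared after a maternal injection of dexamethasone or saline. They were chosen by the labels alone, as all columns of the single-cell table: 15 cells from the dexamethasone arm and 11 from the saline arm, 26 of the 41 samples of the series. Wild type C57Bl6/J dams, 8 weeks old and time mated, received 2 mg/kg dexamethasone or saline by intraperitoneal injection at E17.5 (days of gestation), and the fetal lungs were taken 24 h later, at E18.5. The lobes were digested with collagenase, Pronase and DNase, red blood cells were lysed, and the labels call the libraries C1, the name of a microfluidic instrument that isolates and processes cells one at a time. No sort is described for these cells, and neither arm carries a transgene or a deletion. The labels name no dam, litter or pool for any cell, so each arm is 1 sample here: cells are not replicates, no p-value is given, and every difference is between these cells, not between treatments with a known error. The rest of the series, bulk RNA and chromatin accessibility of sorted mesenchymal fractions, was not analysed here.

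Dexamethasone is a synthetic glucocorticoid. It binds the glucocorticoid receptor, Nr3c1, which moves to the nucleus, where it binds DNA at a palindromic element made of 2 half-sites, and also reaches promoters through other factors. Before birth, glucocorticoid signalling is needed for the thinning of the mesenchyme and the maturation of the air sacs, and the receptor in mesenchymal cells carries much of that role. Matrix fibroblasts are the mesenchymal cells that surround the distal airspace, make extracellular matrix and secrete growth factors such as Wnt2 and Fgf10 that act on the epithelium.

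The dexamethasone cells held fewer counts and fewer genes than the saline cells, so depth came first. Total expected counts per cell ran from 215623 to 1781606 in the dexamethasone cells, with a median of 852850, and from 879285 to 1787997 in the saline cells, with a median of 1349765. The saline median was 1.58 times the dexamethasone median, and 8 of the 15 dexamethasone cells lay below the shallowest saline cell. Genes with at least 1 count numbered 2808 to 4988 (median 3437) with dexamethasone and 3359 to 5761 (median 5114) with saline. After every cell was thinned in expectation to the total of the shallowest one, 215624 rounded counts, which left out no cell, the medians were 2768 and 3979 genes. The saline cells thus showed 1.44 times as many genes at equal depth, against 1.49 times before thinning. Rn45s, the ribosomal RNA precursor, took 0.272 to 12.1% of the counts of a dexamethasone cell and 1.04 to 3.88% of those of a saline cell. The column names of the arms also differ in form, so that anything shared by a run or plate cannot be told apart from the treatment.

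**Figure D1:**
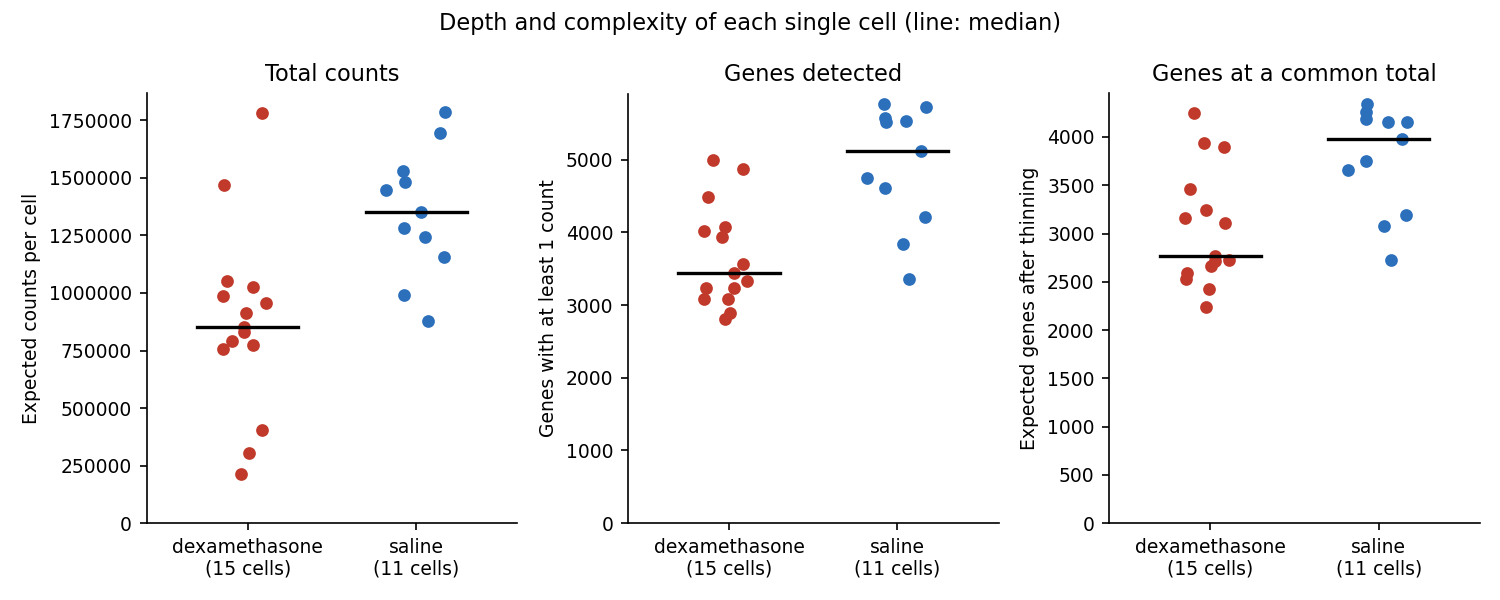
Total expected counts, genes with at least 1 count, and genes expected at a common total of 215624 counts, on linear axes starting at 0; each point is 1 cell and the line is the median. The saline cells sit higher in all 3 panels, with medians of 1349765 against 852850 counts and of 3979 against 2768 genes at the common total.

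Most of the cells carried mesenchymal RNA, whatever the arm. Col1a2, a fibrillar collagen chain, was counted in all 26 cells, at 742 to 5011 CPM (CPM is the gene's share of the cell's counts on a fixed scale; median 1516) with dexamethasone and 328 to 3782 CPM (median 1491) with saline. Epcam, the surface marker of epithelium, and Twist2, whose Cre marks mesenchyme elsewhere in the series, were at 0 in all 26 cells. Surfactant protein C, Sftpc, a product of alveolar type II epithelium, nevertheless had counts in every cell, from 0.974 to 7597 CPM (median 152) with dexamethasone and from 8.64 to 683 CPM (median 64.5) with saline. The label gives no cell type, and mesenchymal genes led in these cells. A few counts of a gene in a cell are not read here as expression of it.

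The arms differed in which mesenchymal and endothelial genes their cells carried. Tcf21, a transcription factor of lung fibroblasts, fell into 2 ranges with no cell between 100 and 500 CPM: it was at or above 500 CPM in 13 of 15 dexamethasone cells and 7 of 11 saline cells. The summed level of 16 matrix fibroblast markers ran from 1529 to 73499 CPM (median 44039) with dexamethasone and from 133 to 46323 CPM (median 15355) with saline, and reached 40000 CPM in 11 of 15 against 2 of 11 cells. Endothelial markers went the other way. Their sum was 1.29 to 16279 CPM (median 87.2) with dexamethasone and 100.4 to 16001 CPM (median 3745) with saline, and it reached 1000 CPM in 4 of 15 and 9 of 11 cells. Ednrb, an endothelin receptor, made up nearly all of the highest sum in each arm, with 15764 and 15982 CPM in those cells. Without it the sums were 0 to 2142 CPM (median 12.3) and 10.4 to 11604 CPM (median 997), and reached 1000 CPM in 1 and 5 cells.

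Pecam1, the junction protein of endothelium also called CD31, was above 100 CPM in 1 dexamethasone cell and 5 saline cells, all of which also had Cdh5 above 100 CPM. In 1 and 4 of these, Tcf21 was at or above 500 CPM too, so that endothelial and mesenchymal genes stood in the same library; no doublet caller was run on so few cells. Single cells stood apart for further lists. Dexamethasone cell 14 held haemoglobin RNA, with an erythroid marker sum of 186700 CPM, saline cell 8 held immune RNA at a sum of 8012 CPM, and saline cell 11 held smooth muscle and cardiac RNA at sums of 69714 and 5051 CPM. Dexamethasone cell 11, the shallowest cell and the one with the highest share of Rn45s, had an epithelial marker sum of 11877 CPM, against at most 991 CPM in a saline cell. Dexamethasone cells 15, 12 and 3 also lay above that saline value, at 3920, 2920 and 1252 CPM. Cells 11, 12 and 15 have the lowest totals of all, at 215623, 306290 and 406877 counts. One cell and index number occurs in both arms, for dexamethasone cell 2 and saline cell 11. Their profiles correlated across genes at a Spearman rho of 0.28, while the median over the 165 pairs of cells from different arms was 0.24 and the medians within the arms were 0.28 and 0.28. These correlations describe the libraries, which share genes and differ in depth.

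**Figure D2:**
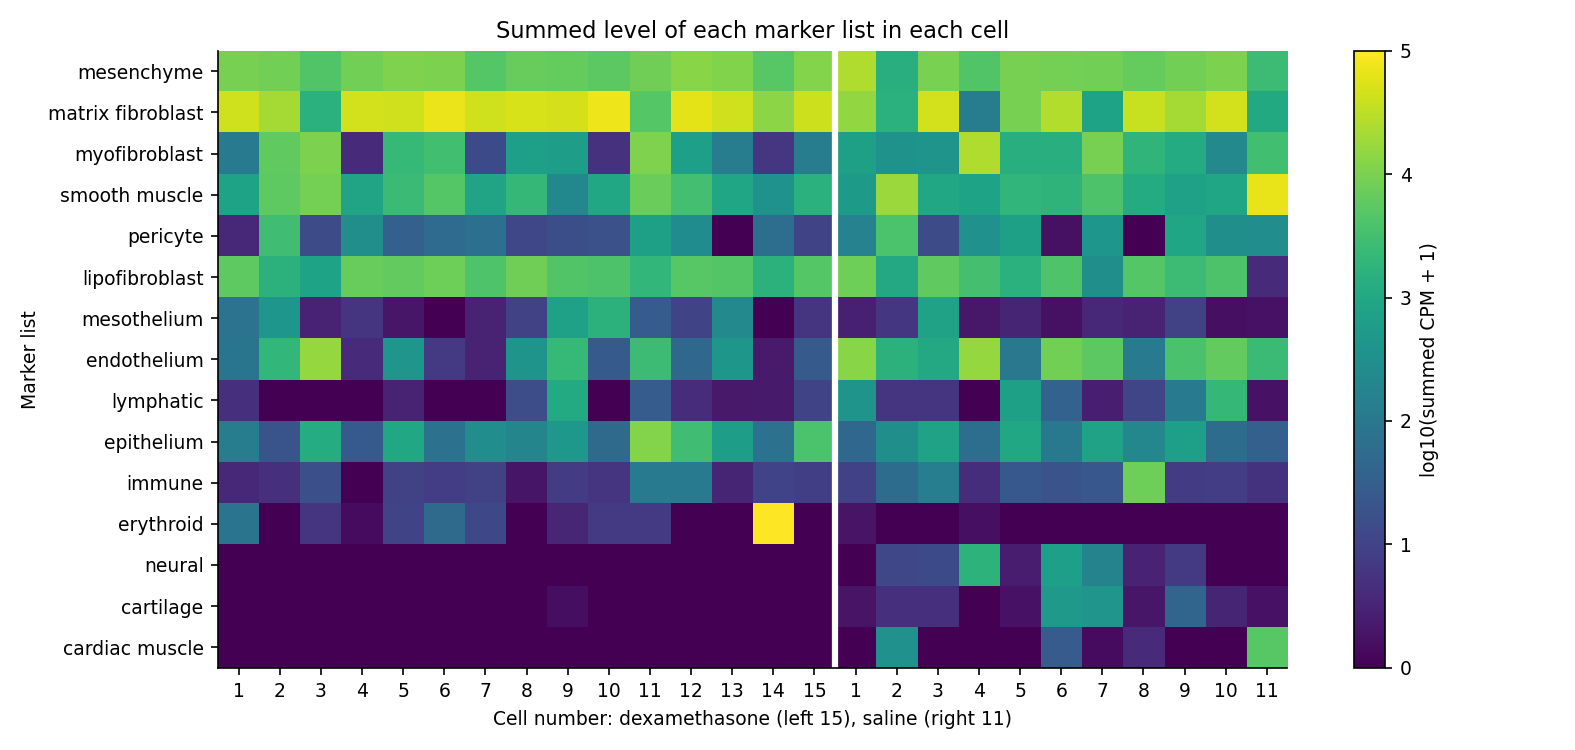
Summed CPM of 15 marker lists, as log10(sum + 1), in each of the 15 dexamethasone cells (left of the white line) and 11 saline cells (right), numbered as in the labels. The matrix fibroblast line reaches 40000 CPM in 11 dexamethasone and 2 saline cells, the endothelium line reaches 1000 CPM in 4 and 9, and dexamethasone cell 14 is the only cell with a high erythroid sum (186700 CPM).

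Some genes of other cell types were counted mainly in one arm. Hba-a1 and Hba-a2, the alpha globin genes, each had a count in 8 of 15 dexamethasone cells, at medians of 1.32 and 0.928 CPM, and in 1 and 0 of 11 saline cells. Stmn2, a neuronal gene, had counts in 6 of 11 saline cells, at up to 661 CPM, and in 0 of 15 dexamethasone cells (exact 95% upper limit, 21.8%). Cartilage markers behaved likewise, with a summed median of 2.36 CPM in the saline cells and a highest sum of 0.561 CPM in the dexamethasone cells. The globin genes are near-identical copies with only fractional values. Whatever brought these genes into one arm, their part in the differences below was not tested.

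Genes were compared in 2 ways. The share rule takes genes whose expected share of detecting cells at the common total differs by at least 40 percentage points. The fold rule takes genes whose median CPM, plus 10, differs by at least 2 on the log2 scale, where the higher median is at least 20 CPM. Both are rules of size, with no error rate, on the 7110 genes counted in at least 6 of the 26 cells. The share rule held for 47 genes that were higher with dexamethasone (0.661% of those kept) and 352 that were lower (4.95%), and the fold rule for 116 higher (1.63%) and 511 lower (7.19%). No gene had all cells of one arm above all cells of the other. Over all genes kept, the median difference in share was -7.57 points and the median log2 ratio 0.00, so a list is read below against these values. The ratio was above 0 for 1281 genes, below 0 for 3421 and 0 for the others. Over the 4679 genes counted in at least 10 cells its median was -0.18. In simulated cells the fold rule also called genes given no difference, at a rate not far below the one found here, so a call describes these cells only.

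Lower shares led under the other ways of counting a detection at a fixed level, with 99 higher and 885 lower genes without thinning, 44 and 301 at 10 CPM or more, and 25 and 456 at 10 counts or more. A gene may also be called detected if it is among the 2000 most counted genes of its cell. Every cell then has the same number of detected genes, which by construction fixes the mean difference over all genes near 0, so the lean cannot be read from this count. By that count 98 genes were higher and 83 lower, so that 54.1% of the calls were higher, against 11.8% above. It shared 18 higher and 53 lower genes with the calls above. Of the 352 lower genes, 140 had a saline median under 10 CPM and 56 one of at least 100 CPM.

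**Figure D3:**
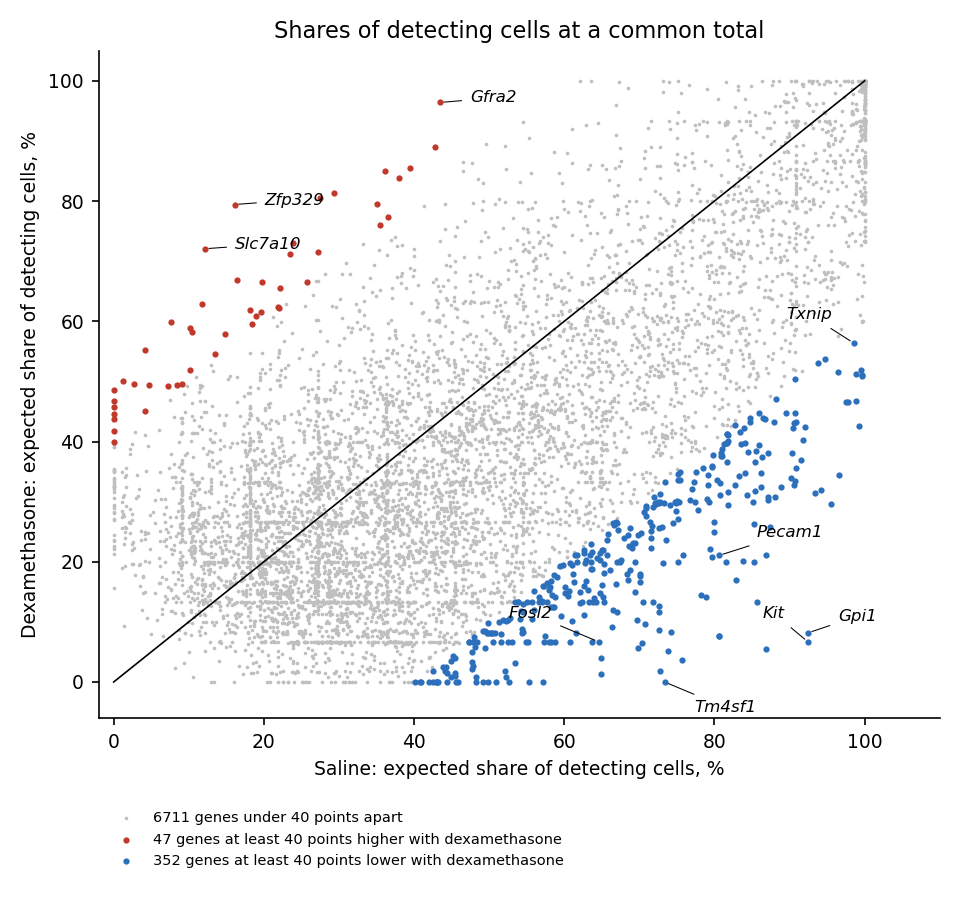
Expected share of detecting cells at the common total, saline on the x axis and dexamethasone on the y axis, in percent, for the 7110 genes kept; the diagonal marks equal shares and the coloured points differ by at least 40 points. There are 352 points far below the diagonal and 47 far above it, with Kit and Gpi1 at the lower right and Slc7a10, Zfp329 and Gfra2 at the upper left.

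Matrix fibroblast genes were the group that stood higher with dexamethasone. Of 16 listed markers, all kept, 9 were higher and 0 lower by the fold rule, and the list's median was 2.25 on the log2 scale and 21.1 points, against 0.00 and -7.57 points over all genes. A dexamethasone cell held 2 to 14 of these markers (median 12) at 100 CPM or more, and a saline cell 1 to 13 (median 8). The list was drawn up with earlier results of these cells known, so its direction is no independent evidence.

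Wnt2, a secreted ligand that lung mesenchyme sends to the epithelium (chr6:17985474-18032772, GRCm38.p6), ran from 0 to 8077 CPM in the dexamethasone cells, with a median of 488, and from 0 to 829 CPM in the saline cells, with a median of 0. It had counts in 11 of 15 cells (exact 95% interval, 44.9 to 92.2%) against 5 of 11 (16.7 to 76.6%). These intervals, like all others below, cover counting error only. The groups overlapped, and the log2 ratio of medians plus 10 CPM was 5.64, a size that rests on the added 10 because one median is 0. Slc7a10, a transporter of small neutral amino acids (chr7:35186095-35201116), was at 0 to 3325 CPM (median 37.5) and 0 to 76.2 CPM (median 0). Counts were found in 12 of 15 (51.9 to 95.7%) and 2 of 11 cells (2.28 to 51.8%), so the saline cells were nearly all at 0. It is the only one of the 16 markers past both rules, at 59.9 points and a log2 ratio of 2.25, but 60% of its nonzero values were fractional and part of its reads may belong to another gene.

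Mfap4, a microfibril-associated protein of the matrix (chr11:61485431-61488708), was at 23.2 to 22594 CPM (median 14873) with dexamethasone and 3.91 to 11643 CPM (median 2690) with saline, a log2 ratio of 2.46. The dexamethasone median thus lay above the highest saline cell. The growth factor Fgf10, which drives branching of the epithelium, had medians of 168 and 1.61 CPM, Figf, the lymphatic growth factor VEGF-D, 317 and 58.5 CPM, and Meox2, a homeobox factor of mesenchyme, 121 and 8.51 CPM. In the Tcf21 cells their log2 ratios were 0.43, 0.85 and 1.98, all short of the rule, and Meox2 turned to -2.08 in the 12 and 3 of these cells without Pecam1 above 100 CPM. The other 3 of the 9 are named after their values were seen. Macf1, which links microtubules to actin, had medians of 7703 and 1491 CPM, Limch1, an activator of non-muscle myosin, 3096 and 438 CPM, and the transmembrane collagen Col13a1 51.6 and 0.591 CPM. Vcam1, the surface protein CD106 by which the series sorts fibroblasts for accessibility, had medians of 367 and 89.1 CPM and counts in 14 of 15 and 7 of 11 cells, short of both rules.

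Fewer of these markers were called higher when only cells with Tcf21 were compared. Tcf21 itself belongs to the list, so this choice of cells is not independent of it. Among the 13 dexamethasone and 7 saline cells with Tcf21 at or above 500 CPM, 2 of the 16 markers were higher by the fold rule, Wnt2 and Slc7a10, and 1, Inmt, was lower, with a list median of 0.63 against -0.11 over all genes kept there. Of the 5930 genes kept there, 106 were higher and 679 lower. Wnt2 was then at medians of 727 and 107 CPM, a log2 ratio of 2.65, Slc7a10 stayed at 37.5 and 0 CPM, and Mfap4 was at a log2 ratio of 1.76. In the 12 and 3 of these cells without Pecam1 above 100 CPM, 5 of the 16 markers were higher and 2 lower by the fold rule. The list median was 0.20 there, against -0.31 over the 4277 genes kept, of which 129 were higher and 848 lower. With only the Pecam1 cells left out, 9 of the 16 were higher and 0 lower, with a list median of 2.29. In that set 115 of 5610 genes were higher and 718 lower, with a median of -0.16. Whether more cells with Tcf21 or more RNA per cell set the medians over all cells cannot be told apart in 26 cells with no sort.

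**Figure D4:**
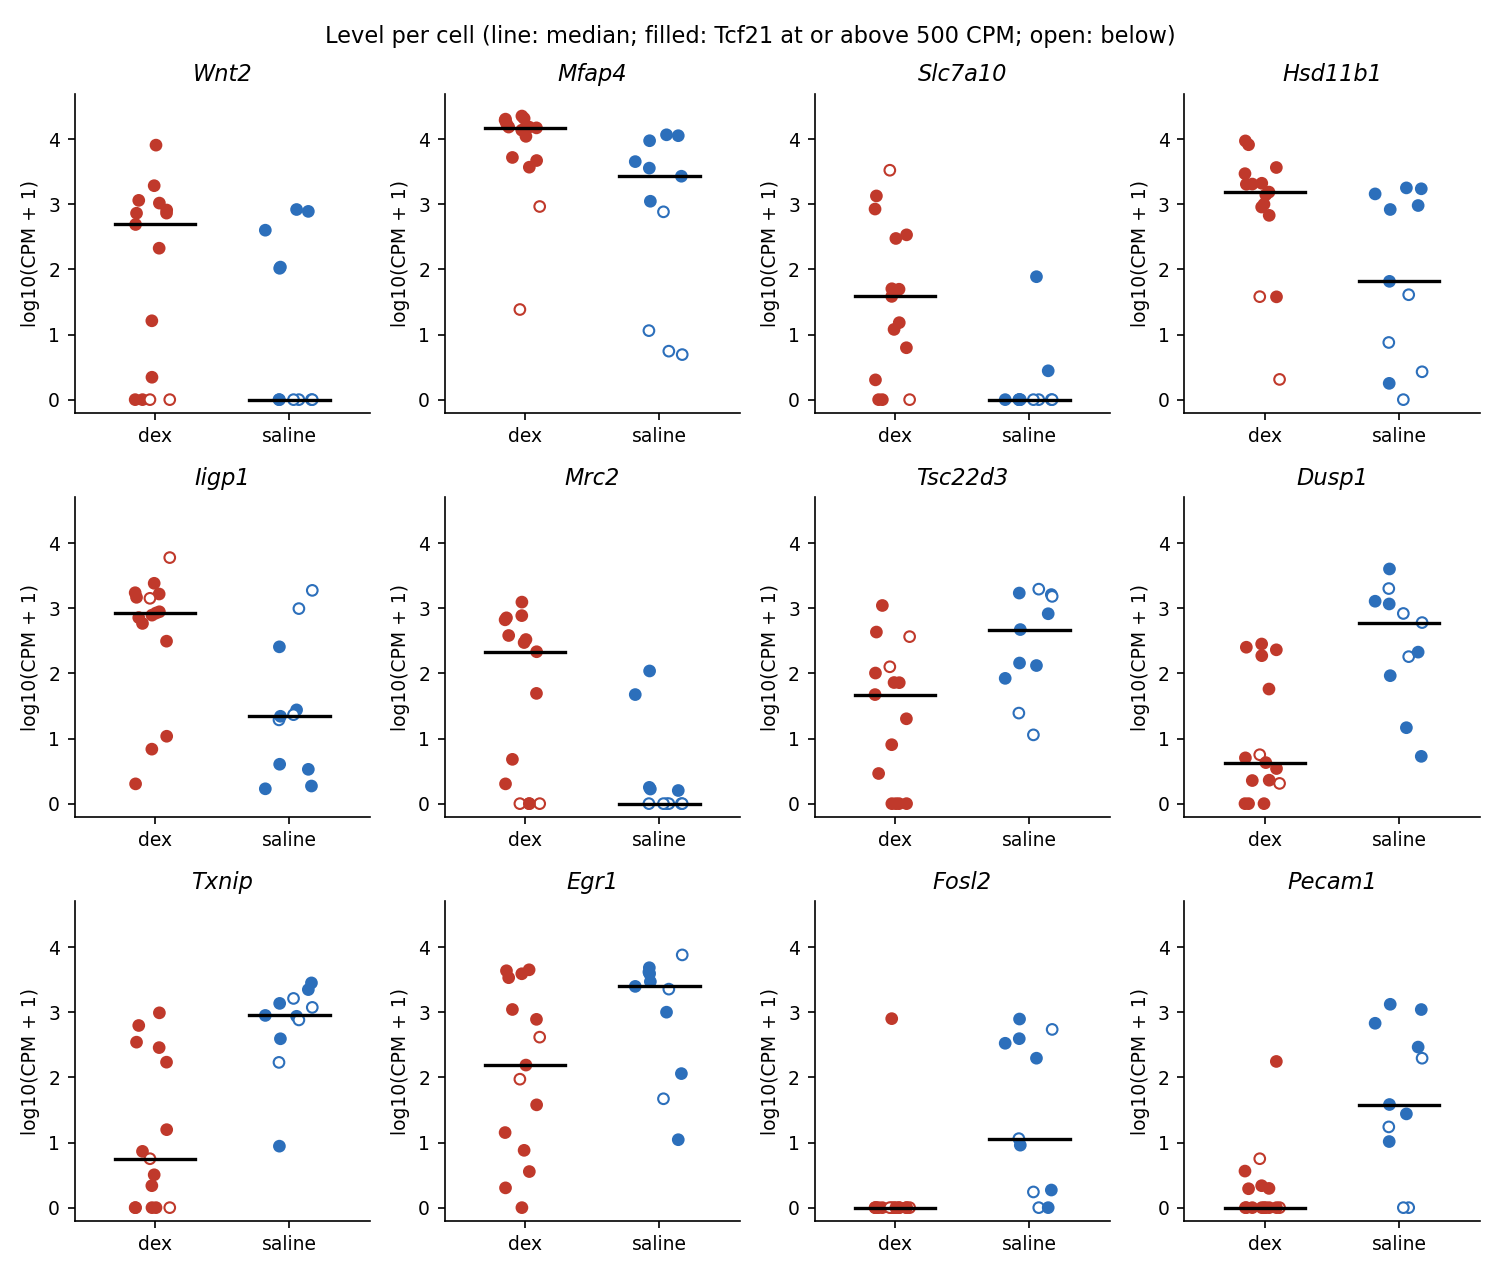
Level of 12 genes in each cell, as log10(CPM + 1), with the dexamethasone cells in red, the saline cells in blue and the median as a line; filled points have Tcf21 at or above 500 CPM. Most dexamethasone cells are high for Wnt2, Mfap4, Hsd11b1, Iigp1 and Mrc2, while the saline cells are high for Tsc22d3, Dusp1, Txnip and Egr1, and in every panel the arms overlap.

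Matrix genes as a whole moved less evenly. Of 28 collagen and matrix genes kept of 34 listed, 4 were higher and 2 lower by the fold rule, with a list median of 0.55 on the log2 scale. Over all genes kept, 1.63% were higher and 7.19% lower, so lower genes were about as frequent in the list as elsewhere. Apart from Mfap4, the higher ones, named after their values were seen, were Col6a3, a chain of the beaded-filament collagen VI (medians 1846 and 387 CPM), fibronectin, Fn1 (5116 and 1252 CPM), and tenascin C, Tnc (53.3 and 2.02 CPM). Fibrillin 1, Fbn1, named in the same way, and the laminin chain Lama4 were lower, with Lama4 at 43.9 and 300 CPM. Col1a1 was at 3.37 to 4453 CPM (median 713) and 0 to 968 CPM (median 269), and Col3a1 at medians of 1406 and 601 CPM, both short of the fold rule. The intermediate filament gene Vim was lower, at 0 to 1840 CPM (median 127) against 74.6 to 15208 CPM (median 898), a log2 ratio of -2.72 that became -0.33 in the 12 and 3 cells with Tcf21 and without Pecam1 above 100 CPM.

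Genes known as targets of the glucocorticoid receptor were not higher 24 h after the injection. Of 32 such targets, 23 were kept, 0 of them higher and 4 lower by the fold rule, and 18 of the 23 differences in share were below 0, as were 4760 of all 7110. The summed level of the list was 317 to 5306 CPM (median 1093) with dexamethasone and 1771 to 7819 CPM (median 4473) with saline. It was 317 to 5306 CPM and 1771 to 7054 CPM among the Tcf21 cells, with the same medians. At least 5 of the targets reached 100 CPM in 5 of 15 and 8 of 11 cells. The list's median difference was -13.4 points and its median log2 ratio -0.21, against -7.57 points and 0.00 over all genes. Over genes counted in at least 10 cells the median log2 ratio was -0.18, close to that of the list. Most members passed neither rule over all cells. In the Tcf21 cells 3 of 22 targets kept were lower by fold, against 679 of 5930 genes. Without the cells with Pecam1 above 100 CPM, 2 of 21 were lower by fold, against 718 of 5610 genes. The list medians were -0.42 and -0.69 in these sets, against -0.11 and -0.16 over all genes kept. In the 12 and 3 cells with Tcf21 and without Pecam1 above 100 CPM, 18 targets were kept, with 8 lower by fold, 6 lower by share and 0 higher. The list median was -1.50 there, against -0.31 over the 4277 genes kept, of which 848 were lower by fold and 648 by share.

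Tsc22d3, which encodes the leucine zipper protein GILZ (chrX:140539528-140600522), was at 0 to 1101 CPM (median 46.2) in the dexamethasone cells and 10.4 to 1962 CPM (median 469) in the saline cells. All 11 saline cells had counts (exact 95% interval, 71.5 to 100.0%) and 11 of 15 dexamethasone cells did (44.9 to 92.2%). Its log2 ratio of -3.09 became -1.10, short of the rule, without the cells with Pecam1 above 100 CPM, and 50% of its nonzero values were fractional. Dusp1, a phosphatase that switches off MAP kinases (chr17:26505591-26508472), was at 0 to 281 CPM (median 3.26) and 4.32 to 4007 CPM (median 601), a log2 ratio of -5.53. Only the saline cells thus held Dusp1 above 281 CPM. Txnip, an inhibitor of thioredoxin and of glucose uptake (chr3:96557957-96561857), was at 0 to 978 CPM (median 4.64) and 7.79 to 2819 CPM (median 892). It passed both rules, at -42.2 points and a log2 ratio of -5.95, and its log2 ratio was -6.25 to -5.79 over the alternatives of cells and scaling, the Tcf21 cells included, and -3.24 with a pseudocount of 100 CPM. Hif3a, a hypoxia-inducible factor subunit, had medians of 4.75 and 49.3 CPM and lay just past the rule at -2.01, a call lost in 7 alternatives of cells and scaling.

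Several widely used targets were sparse in these cells. Fkbp5, the receptor co-chaperone, had counts in 5 of 15 (11.8 to 61.6%) and 7 of 11 cells (30.8 to 89.1%), and the clock gene Per1 in 5 and 4. Zbtb16 had counts in 5 and 6 cells, Klf9 in 8 and 10, Klf15 in 3 and 4, and the metallothioneins Mt1 and Mt2 in 4 and 2 and in 1 and 0. None of them passed a rule over all cells, and Klf9 reached a log2 ratio of -3.95 in the 12 and 3 cells with Tcf21 and without Pecam1 above 100 CPM. Nampt, which makes NAD, was the target with the largest difference upward, at counts in 6 of 15 and 2 of 11 cells, up to 723 and 0.864 CPM, a difference of 27.7 points. Errfi1 and Angptl4 reached 3338 and 1188 CPM in single dexamethasone cells against 138 and 65.8 CPM in the highest saline cell, with medians of 0 in both arms. Ddit4, Fam107a and Rasd1 were at 0 in all 26 cells.

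The remaining listed targets lay between these. Cdkn1c, an inhibitor of the cell cycle, had medians of 64.9 and 89.1 CPM, and Nfkbia, the inhibitor of NF-kB, 71.4 and 118 CPM. The transcription factors Cebpd and Cebpb had medians of 4.49 and 10.9 CPM and of 3.96 and 1.18 CPM. Sesn1 had counts in 6 of 15 and 8 of 11 cells, Cdkn1a in 7 and 8, Glul in 9 and 9, Crispld2 in 7 and 6, Anxa1 in 7 and 6, and Pdk4 in 4 and 4. Map3k6, Lcn2, Bcl6 and Arrdc2 had counts in 1 and 3, 1 and 4, 0 and 2, and 2 and 0 cells. None of these members passed either rule over all cells.

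To show where the receptor could bind near these genes, the 300 bases around each transcription start (250 before, 50 after, RefSeq, GRCm38.p6) were searched on both strands for the full palindrome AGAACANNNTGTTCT and for its half-site, TGTTCT or AGAACA; each full match also counts as half-sites. The palindrome is in 3 of 32851 windows (0.00913%), and 1 of the 41 windows of the targets holds it, at a start of the kinase gene Sgk1. A half-site is in 19.0% of all windows, 17.1% of those of the targets (7 of 41), 13.2% of those of genes higher by the fold rule (15 of 114), 12.5% of those of lower genes (64 of 514) and 6.67% of those of matrix fibroblast markers (1 of 15). The windows below are the one with the full element, chr10:21993640-21993939 on the plus strand, and the one of the 3 at Tsc22d3 that holds a half-site, chrX:140600473-140600772 on the minus strand, each written 5′ to 3′ in the direction of its gene with the half-sites in capitals.
Sgk1: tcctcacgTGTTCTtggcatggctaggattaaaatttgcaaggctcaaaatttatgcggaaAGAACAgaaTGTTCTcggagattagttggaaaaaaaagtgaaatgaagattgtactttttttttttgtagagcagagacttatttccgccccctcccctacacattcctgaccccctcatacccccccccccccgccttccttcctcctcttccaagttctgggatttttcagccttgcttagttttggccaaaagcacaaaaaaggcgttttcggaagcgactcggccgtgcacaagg
Tsc22d3: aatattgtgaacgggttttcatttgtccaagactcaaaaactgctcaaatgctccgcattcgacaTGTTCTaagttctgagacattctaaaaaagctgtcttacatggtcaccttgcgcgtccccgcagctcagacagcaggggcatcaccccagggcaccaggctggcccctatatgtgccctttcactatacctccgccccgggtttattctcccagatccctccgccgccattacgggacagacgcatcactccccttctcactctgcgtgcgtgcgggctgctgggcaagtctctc
Sgk1 had counts in 8 of 15 dexamethasone cells, at 0 to 17.4 CPM (median 0.680), and in 9 of 11 saline cells, at 0 to 820 CPM (median 2.03), short of both rules. A match is a description of the letters; neither window was measured in these cells.

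The receptor gene had counts in every cell. Nr3c1 was at 0.561 to 2684 CPM (median 102) with dexamethasone and 7.23 to 984 CPM (median 152) with saline, a log2 ratio of -0.54. Of 16 receptor and steroid handling genes kept of 19 listed, 1 was higher and 2 lower by the fold rule. Hsd11b1, the enzyme that regenerates active glucocorticoid inside cells (chr1:193221640-193264045), was at 1.04 to 9376 CPM (median 1535) and 0 to 1781 CPM (median 64.5), with counts in 15 of 15 and 10 of 11 cells. The log2 ratio of 4.37 became 1.08 in the Tcf21 cells, where the medians were 2031 and 955 CPM, and it was under 2 in 4 alternatives of cells, so the call depends on which cells are taken. In addition, 60% of its nonzero values were fractional. The corepressor Ncor1 was at medians of 42.9 and 260 CPM (log2 ratio -2.35, and -2.43 in the Tcf21 cells), and the coactivator Ncoa3 at 26.1 and 162 CPM (-2.25), a call lost in 4 alternatives of cells and scaling.

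Its chaperones and cofactors differed less. Hsp90ab1, which holds the unbound receptor, was at 32.6 to 2742 CPM (median 1163) and 1149 to 2739 CPM (median 1788), and Ptges3 and Hsp90aa1 had medians of 510 and 914 CPM and of 68.6 and 145 CPM. Crebbp had medians of 23.8 and 22.7 CPM and Ncoa1 13.1 and 2.96 CPM. Ncoa2, Nrip1, Fkbp4, Stip1 and Ep300 had counts in 7 and 8, 8 and 10, 6 and 6, 7 and 3, and 10 and 5 cells. Nr3c2, the mineralocorticoid receptor, had counts in 0 of 15 and 1 of 11 cells, Abcb1a, a steroid-exporting pump, in 1 and 6, and Hsd11b2, which inactivates glucocorticoids, and Abcb1b were at 0 in all 26.

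Immediate early genes, transcription factors and feedback regulators that are switched on within minutes of many stimuli, leaned lower in the dexamethasone cells. Of 20 listed, 15 were kept, and all 15 had a lower share of detecting cells with dexamethasone; 3 passed the share rule and 5 the fold rule, all downward. Over all 7110 genes 4760 had a lower share, and 4.95 and 7.19% were lower by the rules. By median, 14 of the 15 were lower. The list's median was -24.7 points and -1.56 on the log2 scale. A saline cell held 3 to 12 of them (median 7) at 100 CPM or more, and a dexamethasone cell 0 to 9 (median 2). The sums ran from 15.4 to 19616 CPM (median 2536) and from 1965 to 41518 CPM (median 9723).

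Egr1, a zinc finger factor, was at 0 to 4481 CPM (median 153) with dexamethasone and 10.0 to 7586 CPM (median 2492) with saline, a log2 ratio of -3.94. Jun, a subunit of the AP-1 factor, was at 0 to 1163 CPM (median 13.1) and 85.1 to 1058 CPM (median 358), a log2 ratio of -4.00. For both genes a few dexamethasone cells reached the upper saline range, while the median lay low. Fosl2, another AP-1 subunit, had counts in 1 of 15 (0.169 to 31.9%) and 9 of 11 cells (48.2 to 97.7%), a difference of -57.9 points at the common total. Klf4 had counts in 2 and 9 cells and Junb in 7 and 10, at -50.8 and -41.5 points. Both of these and Fosl2 were under 40 points, at -29.7, -9.70 and -38.8, when only the 2000 most counted genes of each cell were called detected. Fos, Btg2 and Klf6, named after their values were seen, were lower by the fold rule with medians of 512 and 2341, 275 and 2111, and 7.24 and 179 CPM. In the Tcf21 cells 8 of the 15 genes were lower by the fold rule and 0 higher, with a list median of -2.23. Over the 5930 genes kept there, 679 were lower and the median was -0.11. Without the cells with Pecam1 above 100 CPM, 6 of 14 were lower and the list median was -1.33. In that set 718 of 5610 genes were lower and the median was -0.16. The labels describe the digestion in the same words for both arms. Its part in the lower levels of immediate early genes was not tested.

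**Figure D5:**
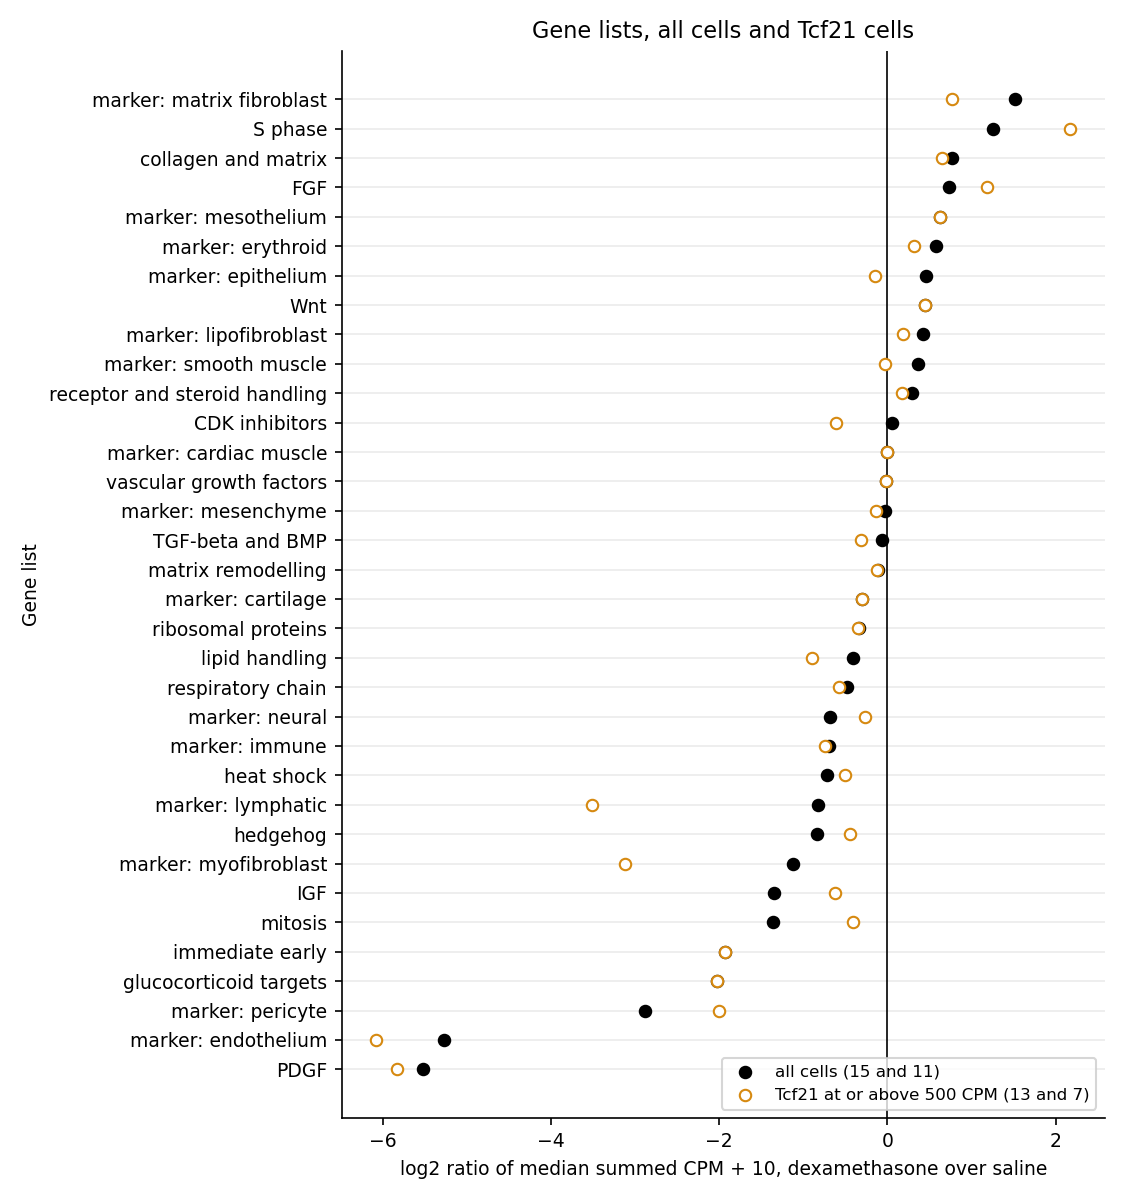
Log2 ratio of the median summed CPM plus 10, dexamethasone over saline, for each of 34 gene lists, over all cells (black) and over the 13 and 7 cells with Tcf21 at or above 500 CPM (open). Glucocorticoid targets, immediate early genes and endothelial markers lie left of 0 in both sets of cells, and matrix fibroblast markers right of 0 in both.

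Several endothelial markers were lower with dexamethasone. Of 17 endothelial markers, 14 were kept, of which 6 passed the share rule and 3 the fold rule, all lower with dexamethasone, against 4.95 and 7.19% of all genes kept. These are 6 of the 352 and 3 of the 511 lower genes. The 3 were Ednrb, Egfl7 and Pecam1, with log2 ratios of -4.11, -5.55 and -2.24. Each lost this call in at least 1 alternative of cells or scaling, where the values closest to 0 were -0.18, -0.35 and -1.19. Pecam1 had counts in 6 of 15 (16.3 to 67.7%) and 9 of 11 cells (48.2 to 97.7%), at 0 to 175 CPM (median 0) and 0 to 1323 CPM (median 37.3), a difference of -59.6 points. Emcn, a sialomucin of capillaries, had counts in 4 and 10 cells, and Flt1, a VEGF receptor, in 2 and 9 at no more than 1.68 and 41.5 CPM. Egfl7, a secreted endothelial protein, had medians of 0 and 459 CPM. Kdr, another VEGF receptor, had counts in 7 and 8 cells and passed neither rule. Without the 1 and 5 cells with Pecam1 above 100 CPM the share rule gave 108 higher and 418 lower genes and the fold rule 115 and 718, with lower genes still in the majority.

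The genes with the largest differences in share included several that nearly every saline cell carried. Kit, a receptor tyrosine kinase, had counts in 1 of 15 (0.169 to 31.9%) and 11 of 11 cells (71.5 to 100.0%), at -85.8 points, but the saline median was 26.5 CPM and the difference was -29.7 points among the 2000 most counted genes. Gpi1, a glycolytic isomerase, had counts in 2 of 15 and 11 of 11 cells, at 0 to 65.1 CPM (median 0) and 0.803 to 698 CPM (median 195). Its -84.3 points and log2 ratio of -4.36 stayed between -86.7 and -72.7 points under the alternatives of detection and cells, and between -4.60 and -3.46 under those of cells and scaling, while a pseudocount of 100 CPM gave -1.56. Myzap had counts in 2 and 10 cells, Nin, a centrosomal protein, in 2 and 11, and Mrpl34 of the mitochondrial ribosome in 1 and 8. Tm4sf1 had counts in 0 of 15 (upper limit 21.8%) and 10 of 11 cells, S1pr1, the sphingosine phosphate receptor of endothelium, in 3 and 9, and Gimap4 in 2 and 10. Fam177a and 1700047I17Rik2 gave identical values, at medians of 0 and 111 CPM, and are overlapping genes that share reads.

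By size of the median ratio, Dhrs3, which reduces retinal and limits retinoic acid, stood at 0 to 1187 CPM (median 0.680) against 0 to 2828 CPM (median 885), a log2 ratio of -6.39 that became -0.42 without the Pecam1 cells. Mdh1, the cytosolic malate dehydrogenase, had medians of 0 and 498 CPM and counts in 7 of 15 and 11 of 11 cells. Ly6e, Adh5 and Sdc2 had medians of 2.35 and 614, 1.10 and 522, and 2.85 and 503 CPM. Ctsa and Itpripl1 had medians of 1.14 and 645 and of 0 and 665 CPM, but 89.5 and 52.9% of their nonzero values were fractional, so their counts are uncertain. Over all cells, each of these genes was at 100 CPM or more in most saline cells and in a minority of the dexamethasone cells. Under the alternatives of cells and scaling, the log2 ratios closest to 0 were -0.40 for Itpripl1, -1.56 for Ly6e and -1.66 for Mdh1, short of the rule. Those of Adh5, Sdc2 and Ctsa were -3.75, -4.01 and -5.51, still past it.

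Outside the lists, 6 of the named genes kept a log2 ratio above 2 in every subset of cells tried. Iigp1, an interferon-inducible GTPase, was at 1.01 to 5990 CPM (median 842) and 0.690 to 1879 CPM (median 20.9). Its log2 ratio was 4.78, 5.93 in the Tcf21 cells, 4.49 to 5.93 over the alternatives of cells and scaling, and 2.96 with a pseudocount of 100 CPM, with 46.2% of its nonzero values fractional. Mrc2, an endocytic collagen receptor of fibroblasts (chr11:105292093-105351146), was at 0 to 1241 CPM (median 214) and 0 to 108 CPM (median 0), with counts in 11 and 5 cells and a log2 ratio of 4.48 (4.19 to 4.91 over cells and scaling, 1.65 with a pseudocount of 100 CPM). Stbd1, a glycogen-binding protein (chr5:92603051-92606579), was at 0 to 4058 CPM (median 200) and 0 to 1023 CPM (median 0), with counts in 14 of 15 (68.1 to 99.8%) and 5 of 11 cells (16.7 to 76.6%). Most saline cells thus had no count of either gene. Trf, the iron carrier transferrin, was at 0 to 3823 CPM (median 357) and 0 to 487 CPM (median 4.73), a log2 ratio of 4.64 (4.29 to 5.57 over cells and scaling, 2.12 with a pseudocount of 100 CPM). Ism1, a secreted protein of the isthmin family, was at medians of 46.7 and 0 CPM with counts in 12 and 4 cells, and the G protein subunit Gnai3 at 660 and 19.0 CPM. A pseudocount of 100 CPM put Stbd1 and Ism1 at 1.58 and 0.55, short of the rule, and Gnai3 at 2.68.

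Other genes with large ratios depended more on which cells were taken. Chst2, a sulfotransferase, had medians of 902 and 10.0 CPM, the LIM domain gene Limd1 482 and 0.864 CPM, and dermatopontin, Dpt, a small matrix protein, 217 and 0 CPM. In the 12 and 3 cells with Tcf21 and without Pecam1 above 100 CPM, the log2 ratios of Chst2, Limd1 and Dpt were 0.93, 1.57 and 0.10. By share, Zfp329 had counts in 13 of 15 and 3 of 11 cells, Trip4 in 13 and 5, Rnf20, a histone H2B ubiquitin ligase, in 11 and 2, and the metalloprotease genes Adam12 and Adamts19 in 9 and 3 and in 10 and 2. Gfra2, a coreceptor for neurturin, had counts in 15 and 6 cells and medians of 40.9 and 1.14 CPM, a log2 ratio of 2.19 that turned to -2.96 in the 12 and 3 cells. The long RNA C430049B03Rik had counts in 15 and 4, at medians of only 6.60 and 0 CPM.

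Ligands and their receptors showed no common direction. Of 19 TGF-beta and BMP genes kept of 24, 1 was higher and 1 lower by share, and 0 were higher and 3 lower by fold. Of their 19 differences in share 11 were above 0, as were 2336 of all 7110 genes kept. Differences in share above 0 numbered 11 of 13 Wnt, 5 of 6 hedgehog, 6 of 10 vascular growth factor and 5 of 10 FGF genes kept. For IGF and PDGF genes they numbered 1 of 7 and 0 of 3. Bmp4, a ligand, had counts in 13 of 15 (59.5 to 98.3%) and 3 of 11 cells (6.02 to 61.0%), at medians of 12.7 and 0 CPM, while the receptor Bmpr2 was at medians of 9.51 and 259 CPM. In the 12 and 3 cells with Tcf21 and without Pecam1 above 100 CPM both calls were lost, at 10.3 points for Bmp4 and a log2 ratio of -0.69 for Bmpr2. Id3, which BMP signals induce, was at 0 to 3640 CPM (median 12.6) and 1.73 to 1171 CPM (median 359), a log2 ratio of -4.03 that ran from -4.66 to -3.58 over the alternatives of cells and scaling and was -2.03 with a pseudocount of 100 CPM. Of 10 FGF genes kept of 15, 2 were higher, Fgf10 and the receptor Fgfr3 (medians 428 and 8.51 CPM, 45.5% of values fractional), whose log2 ratio of 4.57 became 0.85 in the same 12 and 3 cells. Wnt2 was the only one of 13 Wnt genes kept to pass a rule. Pdgfra, the receptor that marks alveolar myofibroblast precursors and matrix fibroblasts, was at 0 to 1354 CPM (median 3.96) and 0 to 4353 CPM (median 134), a log2 ratio of -3.37. Igf1 was lower too, with a log2 ratio of -2.67 that became -1.58 in the Tcf21 cells and -0.46 in the 12 and 3 cells, while of 10 vascular growth factor genes kept Figf and Angpt1 were higher by fold and Epas1 lower by share. Angpt1 changed sign, to -0.93, without the cells with Pecam1 above 100 CPM.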

How the data were processed

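Gene counts of 26 single cells were analysed. The values deposited by the authors are expected counts per gene symbol, as the table shows, since 6.45 to 14.3% of the nonzero values of a cell are not whole. Per the submitters' processing notes, reads belong to build mm10, and the tools named are TopHat2, Bowtie2, Partek, Trim Galore, HOMER and MACS2, without versions or roles. How reads were counted, and whether strand was used, is not stated in those sources, so overlapping and near-identical genes are uncertain. The table holds 24371 genes and 0 mitochondrial symbols; 24254 matched the GRCm38.p6 gene table. CPM were taken over all counts of a cell; detection used counts rounded to whole numbers and the hypergeometric expectation at the common total. Total counts per cell are given in the report. Precision is limited by the number of cells, and exact (Clopper-Pearson) 95% intervals cover counting error only. No cells were removed, clustered or tested for doublets, and no test was run. The thinning was checked against random draws and the fold rule on simulated cells. The share rule was not checked in that way.

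The cells, gene lists and rules were chosen with earlier results of these data known. Named genes were all glucocorticoid target and receptor list members, except 1 not reported here; of every other list up to 4 with the largest difference in share and up to 2 with the largest ratio; the 10 largest differences in share and the 10 largest ratios (higher median at least 50 CPM) in each direction; and 14 listed markers. Other genes are said to be named after their values were seen. Alternatives changed detection, filter, pseudocount, scaling and cells, and those on the 2000 most counted genes, scaling genes, Tcf21 and the 3 cells with haemoglobin, immune or cardiac RNA were chosen after seeing the data. Python 3.11.15, numpy 2.4.6, pandas 2.3.3, scipy 1.17.1 and matplotlib 3.10.9 were used.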

Additional observations from a re-analysis of the deposited data

How the results depend on the processing

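No paired analysis was possible because cell numbers in the labels are running numbers within an arm and no test was run. By the share rule, genes higher and lower numbered 99 and 885 with no thinning, 93 and 820 without the shallowest 3 and 2 cells, 87 and 662 in the Tcf21 cells, 183 and 648 in the Tcf21 cells with Pecam1 at or below 100 CPM, and 98 and 83 with the 2000 most counted genes. The last count gives every cell as many detected genes and so fixes the mean difference in share over all genes near 0. Higher genes numbered 25 with at least 10 counts and 108 without the Pecam1 cells. By the fold rule, 180 were higher with a pseudocount of 1 CPM, 15 higher and 60 lower with 100 CPM, and 848 lower in the Tcf21 cells with Pecam1 at or below 100 CPM. In that last set, of 12 and 3 cells, the log2 ratios of the summed lists were 0.069 for collagen and matrix, -1.30 for matrix remodelling, 4.90 for S phase, 1.97 for hedgehog, 1.24 for pericyte, -1.40 for endothelium, -2.21 for epithelium and -3.18 for immune genes, and Meox2 (-2.08), Tagln (-0.14) and Gfra2 (-2.96) changed sign. Without the Pecam1 cells Angpt1 (-0.93) and Tagln (-1.31) did so, and the PDGF list was at -2.72; the lymphatic list was at -3.51 in the Tcf21 cells and heat shock genes at 0.32 when scaled on the 235 genes counted in all cells. That scaling gave 130 higher and 426 lower genes by the fold rule. The saline median of genes at the common total was 5029 without the shallowest cells, whose removal raises that total. The cause of these moves was not tested. Of 56 named genes past the fold rule, 46 stayed past it in the Tcf21 cells and 28 in the set of 12 and 3; of 44 past the share rule, 24 stayed past it with the 2000 most counted genes. Without the 3 cells with haemoglobin, immune or cardiac RNA the counts were 67 and 470 by share and 126 and 565 by fold, and without the 2 cells that share an index number 54 and 509, and 88 and 624.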

Other observations

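Genes of the cell cycle were on in few cells of either arm. The summed level of 18 S phase genes reached 1000 CPM in 5 of 15 dexamethasone and 3 of 11 saline cells, and that of 20 mitosis genes reached 100 CPM in 6 and 3. In the cells past these levels, 2 to 14 and 4 to 15 of the S phase genes had counts, and 1 to 10 and 2 to 6 of the mitosis genes. Some sums thus rest on very few genes and are not read as cycling cells. Mki67, a marker of cycling cells, was at or above 10 CPM in 2 and 2 cells. Of the 7 mitosis genes kept only Cenpf, which acts at the kinetochore, passed a rule, with counts in 0 of 15 and 6 of 11 cells. Cdkn1b, an inhibitor of the cell cycle, had medians of 6.04 and 23.6 CPM.

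Among housekeeping groups, respiratory chain and ribosomal protein genes leaned lower with dexamethasone by median. Of 21 respiratory chain genes, all kept, 3 were lower by the fold rule, 1 by the share rule, and 0 were higher by either. Ndufa1 (medians 0 and 39.0 CPM) and Sdhb (4.64 and 57.0 CPM) were among the 3. The log2 ratio was below 0 for 17 of the 21 and for 17 of 19 ribosomal protein genes. Over all 7110 it was below 0 for 3421, above 0 for 1281 and 0 for the others. Its medians over these lists were -0.40 and -0.27, against 0.00 over all genes kept and -0.18 over those counted in at least 10 cells. By share the medians were -9.82 and -0.01 points, against -7.57 over all genes kept. None of 19 ribosomal protein genes and none of 10 heat shock genes kept passed a rule; Hspa8, the constitutive heat shock chaperone, had medians of 917 and 2418 CPM. In lipid handling, Abcg1, which exports cholesterol, was at 0 to 102 CPM (median 5.16) with dexamethasone and 2.22 to 1544 CPM (median 353) with saline, a log2 ratio of -4.58 that became -0.96 without the cells with Pecam1 above 100 CPM. Lipofibroblast genes differed little, with Plin2, a coat protein of lipid droplets, at medians of 350 and 139 CPM and Lpl at 1.21 and 1.31 CPM. Xist, the RNA of the inactive X chromosome, was at or above 100 CPM in 4 and 4 cells, and 84% of its nonzero values were fractional.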
